A study of Mus musculus with 14 samples.

Results

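The 9 genes described here, Cd79a, Cd79b, Ms4a1, Ighm, Ighd, Cd22, Fcer2a, Cr2 and Bank1, are grouped as mature B-cell genes. They were taken by symbol from a list of known B-cell genes, with earlier results of these data known, and all 9 were present among the 32589 features of the purchased-mouse tables and the 19465 features of the cross tables. They were followed in 14 mouse tissue sections profiled with Visium, a slide-based assay in which probes for the transcriptome are captured on an array of barcoded spots, each a small region holding several cells. The 6 sections from purchased wild-type C57BL/6 mice were an E13.5 fetal liver, an E14.5 fetal liver, a P8 leg-bone marrow, a leg-bone marrow of 89 weeks freed from bone by cryosectioning instead of decalcification, an adult leg-bone marrow (mice of 6 months) decalcified for 5 days in 0.5 M EDTA, and an adult spleen. The other 8 came from matings of C1qa heterozygotes: wild-type and C1qa knockout E14.5 fetal livers (numbered 2 and 4 after their mothers, with 1 wild-type and 1 knockout littermate of each) and wild-type and C1qa knockout spleens from mice 3 months old (numbered 1 and 2, 2 per genotype). No drug or challenge was given to any group, and the knockouts carry the C1qa deletion in every cell of the body. A level is a gene's share of all UMIs (unique molecules), scaled as CPM, summed over the spots under tissue in which 1000 or more genes were seen. Because each gene has its own probes, differences in CPM were tested within a gene, and levels of different genes given side by side are not a ranking.

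Mature B cells carry an antigen receptor in which membrane immunoglobulin M (heavy chain gene Ighm) or D (Ighd) is bound to the signalling chains CD79A and CD79B. CD20 (Ms4a1) and the inhibitory lectin CD22 sit beside it, CD21 (Cr2) binds complement fragments and lowers the threshold for receptor signalling, CD23 (Fcer2a) is a low-affinity IgE receptor, and BANK1 is a cytoplasmic adaptor of the receptor. In the mouse spleen B cells fill the follicles of the white pulp. Follicular B cells are known for CD23 and IgD, marginal-zone B cells for high CD21 and IgM, and follicular dendritic cells also make CD21. Plasma cells, which sit in red pulp and bone marrow, lose most B-cell surface proteins while making large amounts of immunoglobulin mRNA. C1q, the complement component missing in the knockout, is made mainly by macrophages.

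Promoter windows were looked at for binding motifs of factors known to act in B cells, because the members were to be compared for moving together. RefSeq windows on GRCm38.p6, the build of the deposited tables, were found for 5 of the 9 members. The stretches that lie outside the annotated gene are shown for a receptor chain (Cd79a), the member with the largest genotype difference (Cr2) and the adaptor gene (Bank1), 5′ to 3′ on the gene's strand. Capitals mark matches to CAGNTG (the E-box bound by E2A) and, in Cd79a only, to GAGGAA (a core bound by ETS factors), read on either strand.
Cd79a, chr7:24897247-24897496, plus strand: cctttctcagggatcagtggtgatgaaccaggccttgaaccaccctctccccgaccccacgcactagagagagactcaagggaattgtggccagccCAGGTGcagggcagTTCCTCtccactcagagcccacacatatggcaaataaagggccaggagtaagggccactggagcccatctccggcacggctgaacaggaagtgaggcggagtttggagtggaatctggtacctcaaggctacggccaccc
Cr2, chr1:195176881-195176969, minus strand: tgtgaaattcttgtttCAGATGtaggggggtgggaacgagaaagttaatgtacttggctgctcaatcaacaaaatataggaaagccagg
Bank1, chr3:136326142-136326316, minus strand: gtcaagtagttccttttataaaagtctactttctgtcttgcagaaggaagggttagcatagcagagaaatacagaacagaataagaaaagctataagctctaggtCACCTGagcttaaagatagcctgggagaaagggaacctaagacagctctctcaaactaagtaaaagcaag
Over the 250 bases before each annotated start, a gene was counted if any of its windows held the motif. The E-box was found in all 5 members with a window and in 48.2% of all 27025 genes with one. The palindromic CCCNNGGG of EBF factors was found in 2 members (Cd22 and Bank1) and in 13.4% of these genes. GAGGAA was found in 1 member (Cd79a) and 25.9%, and the octamer ATGCAAAT in 0 members and 1.81%. No motif overlapped another in these members. These are letter matches only and nothing was drawn from their presence or absence.

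Depth and composition differed between sections. Between 491 and 2320 spots passed in 13 sections, while only 15 of 814 in-tissue spots passed in the EDTA-treated marrow, which holds 39 UMIs of the 9 members and is named below only as counts. Wild-type spleen 2 was shallow, with a median of 2293.5 UMIs per passing spot against 7846 to 13937.5 in the other spleens. C1qa, the deleted gene, matched the label of every cross section, with 1023 to 4343 UMIs in each of the 4 wild types and 1 or 2 in each of the 4 knockouts. Knockout spleen 2 and, to a smaller degree, knockout spleen 1 held pancreas: the summed level of 9 pancreas genes was 19783 and 3073 CPM there, whereas the wild-type spleens numbered 1 and 2 gave 62.9 and 707 CPM. In the fetal livers numbered 4 only 240 of 806 wild-type spots and 366 of 589 knockout spots had at least 0.5% of their UMIs from 10 hepatocyte genes, and sections numbered 2 were almost entirely liver by this measure. Values without pancreas spots or by hepatocyte spots are given beside the results they change.

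In the 5 spleens the members summed to between 11785 and 19325 CPM, in the P8 and 89-week marrows to 344 and 8902 CPM, and in the 6 fetal livers to between 18.1 and 89.7 CPM. The spleen was therefore the organ in which the labelled tissue and the B-cell genes went together, and all 9 members were far above their fetal-liver levels there. In a mixture such as a Visium spot, fewer B cells and less RNA per B cell cannot be told apart.

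**Figure D1:**
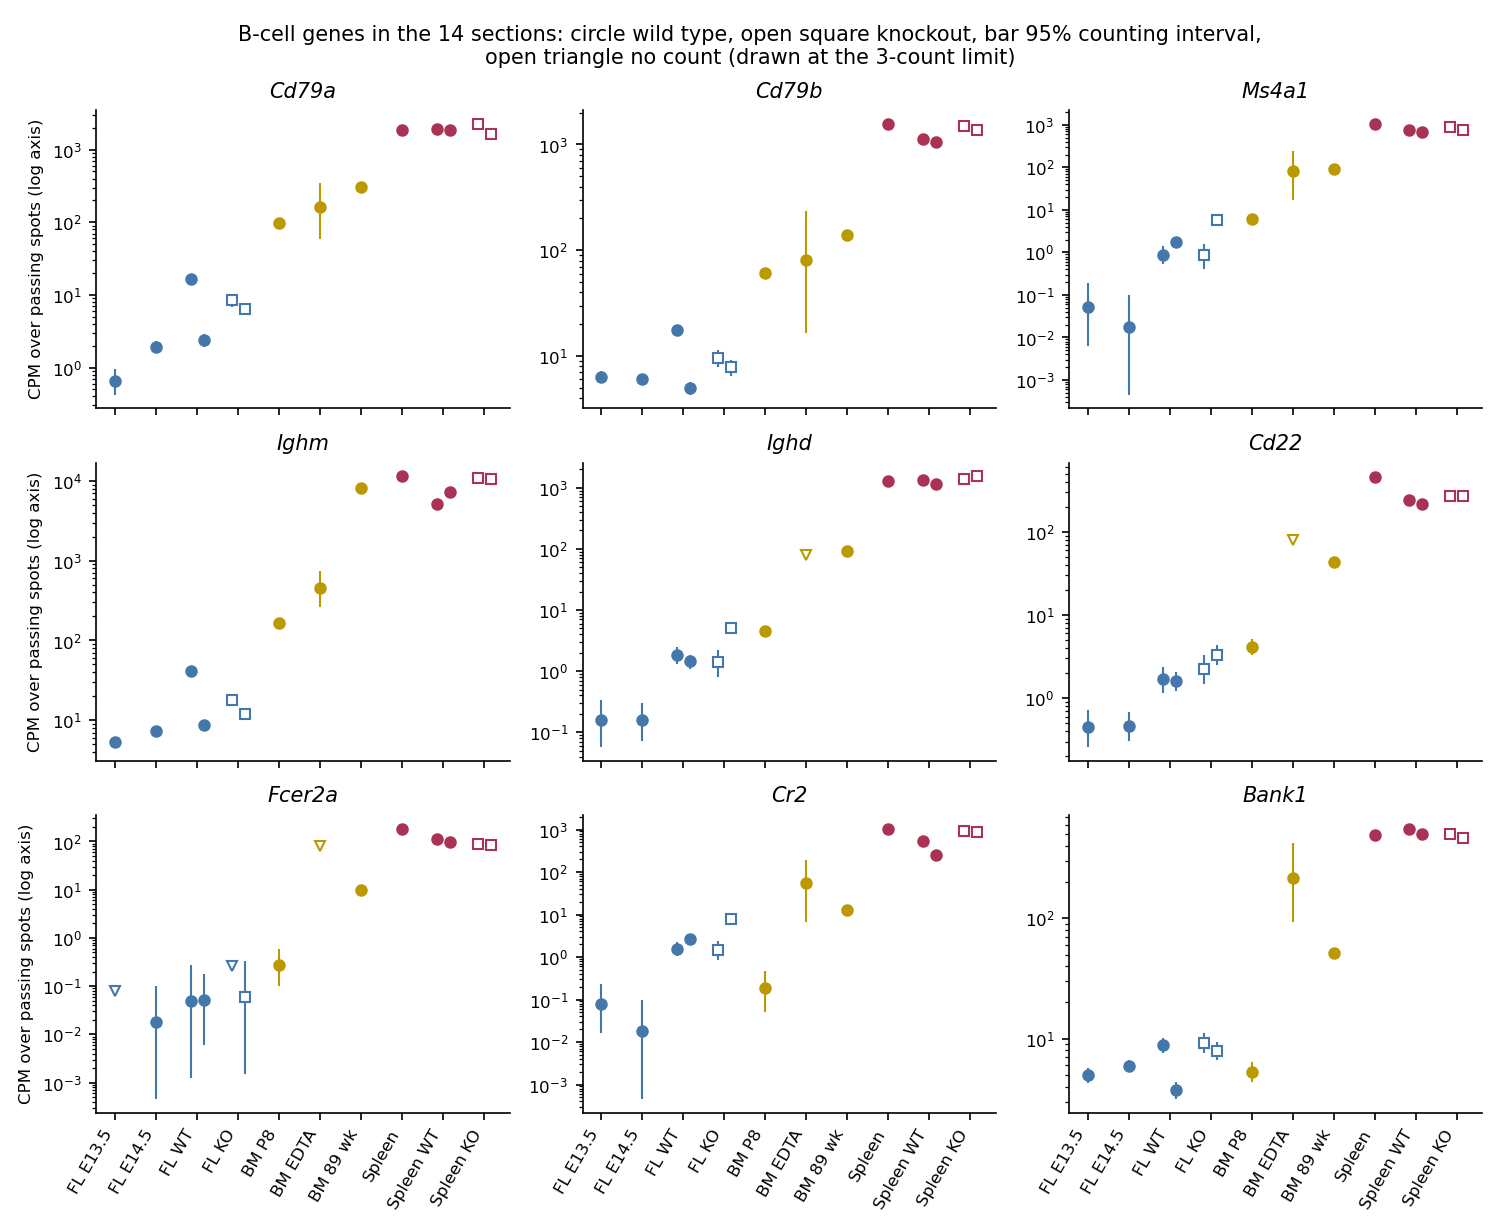
Level of each mature B-cell gene (CPM, log axis) in all 14 sections, with 1 point per section, circles for wild type, open squares for knockout, bars for 95% counting intervals and open triangles at the 3-count limit where a section had no count. The 5 spleens lie above the fetal livers for every gene, with Fcer2a between 84.5 and 180 CPM in spleen and at most 0.0595 CPM in fetal liver, and the 89-week marrow lies above the P8 marrow.

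Among the receptor chains, Cd79a was at 1834 CPM in the purchased spleen, 1937 and 1855 CPM in the cross wild types (numbers 1 and 2), and 2235 and 1649 CPM in the knockouts (numbers 1 and 2). Cd79b was at 1548, 1124, 1049, 1506 and 1357 CPM in the same order. For Cd79a the wild-type values lay between those of the knockouts, whereas for Cd79b both knockouts lay above both cross wild types and below the purchased wild type. Ighm was at 11449 CPM in the purchased spleen, 5206 and 7298 CPM in the cross wild types, and 10755 and 10622 CPM in the knockouts. Ighd was at 1277, 1315, 1141, 1388 and 1531 CPM. Both heavy chain genes were thus higher in both knockouts than in either cross wild type, but the purchased wild-type spleen had the highest Ighm level of all 5 and an Ighd level between those of the cross wild types.

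Among the surface proteins, Ms4a1 was at 1038 CPM in the purchased spleen, 774 and 686 CPM in the cross wild types, and 874 and 767 CPM in the knockouts, and the genotypes overlapped. Cd22 was at 457, 239, 218, 266 and 270 CPM, without overlap between the cross genotypes. Fcer2a was at 180, 110, 96.1, 88.4 and 84.5 CPM, so that here both knockouts were lowest. As a ratio of highest to lowest, Cr2 had the widest spread. It was at 1050 CPM in the purchased spleen, 530 and 246 CPM in the cross wild types, and 921 and 885 CPM in the knockouts. The wild types of the cross differed from each other by a larger ratio in Cr2 than in any other member, and the purchased wild type again lay above both knockouts. Bank1 was the steadiest, at 492, 551, 502, 506 and 467 CPM.

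Over all passing spots of the bone marrow sections, all 9 members were higher in the old than in the young animal. Each age was represented by 1 section prepared in its own way, and the P8 section was not restricted to marrow spots. No test was possible, and age, preparation and tissue content cannot be told apart. The 8 neutrophil genes, for example, summed to 5744 CPM at P8 and 27775 CPM at 89 weeks. The P8 marrow had Cd79a at 97.7 CPM, Cd79b at 60.8 CPM, Ighm at 166 CPM, Ms4a1 at 6.01 CPM, Bank1 at 5.32 CPM, Ighd at 4.46 CPM and Cd22 at 4.14 CPM. Fcer2a and Cr2 were near the floor with 6 and 4 UMIs (0.273 CPM, exact Poisson 95% interval 0.100 to 0.594, and 0.182 CPM, 0.0496 to 0.466). Early B-cell genes were also present, with Vpreb3 at 46.3 CPM and Igll1 at 40.4 CPM, and Jchain, the joining chain of secreted immunoglobulin, had 5 UMIs. The B-cell stage from which the member counts came was not tested.

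In the 89-week marrow Cd79a was at 303 CPM, Cd79b at 139 CPM, Ighd at 92.7 CPM, Ms4a1 at 90.5 CPM, Bank1 at 52.0 CPM, Cd22 at 43.5 CPM, Cr2 at 12.8 CPM and Fcer2a at 10.1 CPM. Ighm, at 8158 CPM, made up 91.6% of all member counts, against 48.1% at P8 and 44.2% to 60.2% in the spleens. The ratio of Ighd to Ighm was 0.0114, where the spleens ranged from 0.112 to 0.253. Jchain was at 562 CPM and the 8 plasma-cell genes together at 1029 CPM, while Vpreb3 (19.0 CPM) and Igll1 (10.2 CPM) were lower than at P8. The EDTA-treated marrow had 17 UMIs of Ighm, 8 of Bank1, 6 of Cd79a, 3 each of Cd79b and Ms4a1, 2 of Cr2 and 0 of Ighd, Cd22 and Fcer2a, and a count of 0 there allows up to 80.7 CPM.

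In the fetal livers all members were low and differed between sections. Ighm ranged from 5.32 CPM at E13.5 through 7.32 CPM in the purchased E14.5 liver to 41.0 and 8.66 CPM in the cross wild types (numbers 2 and 4) and 17.9 and 12.1 CPM in the knockouts (numbers 2 and 4). Cd79b was at 6.37, 6.02, 17.5, 4.98, 9.52 and 7.79 CPM in the same order, and Cd79a at 0.652, 1.92, 16.4, 2.37, 8.49 and 6.42 CPM. Wild-type fetal liver 2 was highest for all 3 of these genes, and the members summed to 89.7 CPM there against 27.3 CPM in its wild-type counterpart. Bank1 ranged from 3.71 to 9.26 CPM and was about as high at E13.5 (4.98 CPM) as at E14.5 (5.94 CPM in the purchased liver). Fcer2a had 0, 1, 1, 2, 0 and 1 UMIs in the 6 livers, and the counts of 0 allow up to 0.0783 CPM at E13.5 and 0.260 CPM in knockout fetal liver 2.

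Cr2 and Ms4a1 had another order among the fetal livers. Cr2 counted 3 and 1 UMIs in the purchased E13.5 and E14.5 livers, 32 and 108 in the cross wild types, and 17 and 132 in the knockouts. Ms4a1 counted 2, 1, 18, 70, 10 and 96 UMIs in the same order. Both were highest in the sections numbered 4 of either genotype, at 2.73 and 7.85 CPM for Cr2 and 1.77 and 5.71 CPM for Ms4a1, which are the sections with many spots that are low in hepatocyte genes. The Cr2 level was nearly the same inside and outside hepatocyte spots, with 2.72 and 2.73 CPM in wild-type fetal liver 4 and 7.80 and 7.96 CPM in knockout fetal liver 4. Other members differed more between these spots: in wild-type fetal liver 4 Cd79b was at 6.66 CPM inside and 3.77 CPM outside hepatocyte spots and Ighm at 6.66 and 10.1 CPM, and in knockout fetal liver 4 Ighm was at 10.6 and 15.7 CPM and Ms4a1 at 5.12 and 7.14 CPM. In the livers numbered 2 nearly all member counts lay in hepatocyte spots, with 826 of 828 Ighm UMIs in the wild type. These spots were 2190 of 2320 in the wild type and 2073 of 2147 in the knockout. As a level in the wild type, Ighm was at 42.4 CPM inside and 2.78 CPM outside them. Cr2 was at 1.54 CPM inside and 2.78 CPM outside, and each of the 2 genes had 2 UMIs outside. The source of these counts was not tested.

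The comparison of the 4 cross spleens with the 4 cross fetal livers asked how strongly each member separates the organs. All 9 members were higher in spleen by edgeR's quasi-likelihood test with Benjamini-Hochberg adjustment over 19180 genes, where 53.3% of all genes were called, 26.7% as higher and 26.6% as lower. Fcer2a ranked first of all genes by p, at 10.39 on the log2 fold scale (SE 0.35, adjusted p = 2.80e-05 by edgeR). It had 4 UMIs in the 4 fetal livers together, and the pooled spleen level was 2112 times the pooled fetal-liver level (95% counting interval 824 to 7755). The fitted log2 fold changes of the other members were 8.54 for Ighd (SE 0.47), 7.98 for Ms4a1 (SE 0.45), 7.78 for Ighm (SE 0.95), 6.98 for Cr2 (SE 0.47), 6.90 for Cd79a (SE 0.88), 6.14 for Cd22 (SE 0.30), 6.08 for Cd79b (SE 0.68) and 5.24 for Bank1 (SE 0.54). Fcer2a, Ighd and Ms4a1 thus had the largest fitted differences of the 9, and Bank1 and Cd79b the smallest. The lowest of the 5 spleens was above the highest of the 6 fetal livers by 31.4 times for Cr2 and by 1420 times for Fcer2a, and the other members lay between.

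All 9 calls held in each of 15 alternatives, leave-one-out fits and fits on spleen and hepatocyte spots included. Spleens were adult and livers fetal, so organ and age cannot be told apart. Of the B-cell genes outside the members, 7 of 8 surface protein genes, 5 of 5 survival and homing receptors, 10 of 10 receptor signalling genes and 7 of 8 transcription factor genes were also higher in spleen, with median log2 fold changes of 5.50, 5.23, 3.26 and 3.28 against 6.98 for the members and 0.10 for all genes.

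The comparison of C1qa knockout with wild-type spleens asked whether loss of C1q goes with a change in the B-cell compartment. Of the 9 members 3 were called higher in the knockout and 0 lower, in a comparison in which 20.6% of 18895 genes were called, 13.8% as higher and 6.79% as lower. Cr2 went from 388 ± 201 CPM in wild type to 903 ± 25.6 CPM in the knockout (mean ± SD, n = 2 each), Ighm from 6252 ± 1479 to 10688 ± 93.9 CPM, and Cd79b from 1086 ± 52.5 to 1432 ± 105 CPM. The fitted log2 fold changes were 1.47 for Cr2 (SE 0.26, adjusted p = 0.000908 by edgeR), 1.03 for Ighm (SE 0.23, adjusted p = 0.00388) and 0.65 for Cd79b (SE 0.20, adjusted p = 0.0296). The remaining 6 did not pass: Ighd at 0.51 (SE 0.21), Cd22 at 0.49 (SE 0.17), Ms4a1 at 0.42 (SE 0.20), Cd79a at 0.28 (SE 0.21), Bank1 at 0.14 (SE 0.19) and Fcer2a at -0.00 (SE 0.16), with adjusted p from 0.0507 for Cd22 to 0.996 for Fcer2a by edgeR. The median of the 9 was 0.49 against -0.08 for all genes tested.

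By CPM alone, 5 members (Cd79b, Ighm, Ighd, Cd22 and Cr2) lay above the wild types in both knockouts and 1 (Fcer2a) below, where 19% of all 19184 genes lay above and 50.8% below without overlap. The knockout to wild-type ratio of mean CPM was 2.33 for Cr2, 1.71 for Ighm and 1.32 for Cd79b, and 0.838 for Fcer2a. Set against the summed level of 31 other B-cell genes in the same section, Cr2 was 6.29% and 3.27% in the wild types, 9.32% and 9.89% in the knockouts and 11% in the purchased wild type. Fcer2a was 1.31% and 1.28% of that sum in the wild types, 0.895% and 0.944% in the knockouts and 1.90% in the purchased spleen. The ratio of Fcer2a to Cr2 was accordingly 0.208 and 0.390 in the wild types and 0.0960 and 0.0955 in the knockouts, without overlap, and 0.172 in the purchased spleen. The purchased spleen, from another mouse source and with another feature table, was not tested against the cross.

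**Figure D2:**
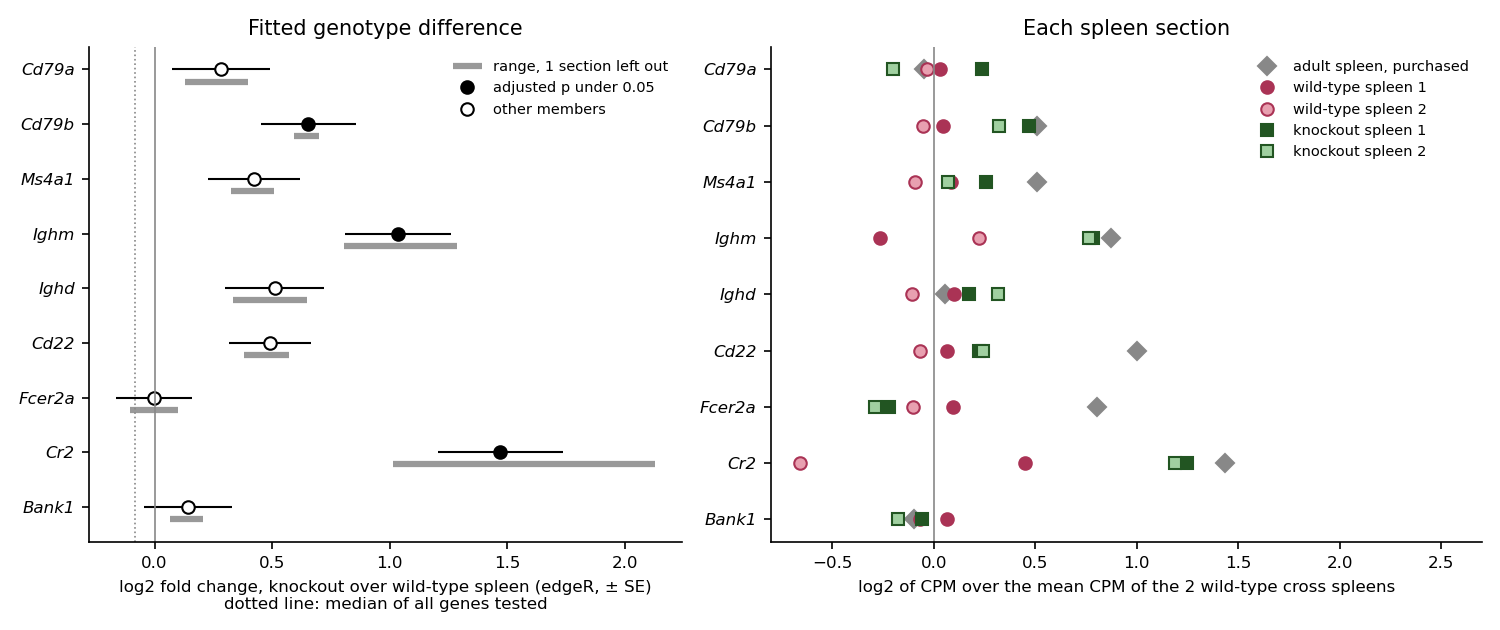
Left, log2 fold change of knockout over wild-type spleen for each member (edgeR, point with SE bar, filled where the adjusted p is under 0.05), with a grey bar for the range when 1 section is left out and a dotted line at the median of all genes, -0.08. Right, log2 of each spleen's CPM over the mean of the wild-type cross spleens, where Cr2 and Ighm lie higher in both knockouts and in the purchased wild-type spleen than in either cross wild type.

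These calls depended on single sections and on scaling. Without knockout spleen 2 none of the 9 members passed, with Cr2 at 1.40 (adjusted p = 0.0598 by edgeR), Ighm at 0.94 (0.177) and Cd79b at 0.63 (0.295), and 240 genes were called in all. Without knockout spleen 1 only Cr2 passed (adjusted p = 0.00839 by edgeR). In a joint fit with the fetal livers, which vary more, 0 members passed (Cr2 adjusted p = 0.663 by edgeR), and with litter as a term there only Cr2 did (0.00654). The Cr2 change was 2.13 without wild-type spleen 1 and 1.01 without the shallow wild-type spleen 2. When library totals replaced the scaling factors of the trimmed mean of M values, the median of all genes moved to -0.34 and the share of calls that were higher fell from 67.0% to 26.5%, and under upper-quartile factors the median was -0.37 and the share 21.4%. Such a change moves all genes by nearly the same amount. Cr2 and Ighm were called under all 3 scalings and Cd79b only under the first. With pancreas spots removed the same 3 members passed and Cd22 joined them (adjusted p = 0.0437 by edgeR). Blood-cell content also moved with genotype: 8 erythroid genes summed to 2625 and 909 CPM in the wild types and 265 and 496 CPM in the knockouts, and 8 neutrophil genes to 662 and 593 against 73.5 and 131 CPM, with all 8 of each list called lower. All 9 pancreas genes were called higher, and of 9 hepatocyte genes tested 1 was called lower. Their part in the members' result was not tested.

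Of the genes that work with the members, those called were higher in the knockout, the early B-cell gene Igll1 aside. Of 8 B-cell surface protein genes 3 were called higher in the knockout and 0 lower, where 13.8% of all genes were called higher and 6.79% lower (Fcrla 0.78, Cd72 0.55 and Fcmr 0.49 on the log2 scale), and of 5 survival and homing receptors 2 were called higher (Cd40 0.87 and Tnfrsf13b 0.71). Of 10 receptor signalling genes 4 were called higher, among them the phosphatase gene Ptpn6 (0.88), Plcg2 (0.71) and the kinase gene Syk (0.60). Of 8 transcription factor genes 5 were called higher, with Bcl11a at 1.05, the coactivator Pou2af1 at 0.91, Ebf1 at 0.72 and Pou2f2 at 0.57. The medians of these 4 lists were 0.47, 0.38, 0.50 and 0.55, next to 0.49 for the members. Under upper-quartile factors the calls in these 4 lists were 1, 1, 1 and 3 higher and 0, 0, 0 and 1 lower, where 1197 of all 18895 genes were called higher and 4400 lower. Of 6 early B-cell genes tested Il7r was higher (3.13), a gene also expressed by T cells, and Igll1 lower (-0.97).

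The other spleen cell types were counted in the same fit, in which 13.8% of all genes were called higher and 6.79% lower. Of 8 plasma-cell genes 4 were called higher (Jchain 1.19, Irf4 1.01, Derl3 0.85 and Xbp1 0.63), and their summed level was 1062 and 1534 CPM in the wild types, 2108 and 1946 CPM in the knockouts and 3206 CPM in the purchased spleen. Of 9 T-cell genes 2 were higher (Cd8a 0.99 and Cd4 0.81), and their summed level, 835 and 1892 against 1350 and 1566 CPM, overlapped between genotypes. Cxcl13, the chemokine that draws B cells into follicles, was higher (1.44), and the other follicle stroma genes Coch (-0.27) and Madcam1 (-0.12) were not called. The summed level of these 3 genes was lower in both knockouts, at 765 and 722 CPM in the wild types and 545 and 524 CPM in the knockouts. In the purchased spleen it was 656 CPM. Red-pulp macrophage genes gave 3 of 6 higher (Cd163 0.72, Spic 0.65 and Vcam1 0.64), but 0 higher and 2 lower under upper-quartile factors. Their summed level, 1721 and 1217 CPM in the wild types and 1161 and 1259 CPM in the knockouts, overlapped between genotypes. Without knockout spleen 2, 1 gene of the 4 B-cell lists, and 0 of the plasma-cell list, was still called, as only 240 of all genes were. The medians of the 4 B-cell lists were then 0.34, 0.34, 0.53 and 0.49 and that of the plasma-cell list 0.50.

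In the fetal livers no member was called between genotypes, and no gene was: 0 of 18986 genes (0%) passed by edgeR, 138 reached an unadjusted p below 0.05, and 7 passed with DESeq2. Fcer2a was too low to be tested. The fitted log2 differences of the other 8 members ran from -1.10 for Ighm (SE 0.98) to 0.89 for Ms4a1 (SE 0.74), with adjusted p = 1.00 by edgeR for each. The SEs lay between 0.66 and 1.09, against 0.16 to 0.26 in spleen, so a difference of the size fitted for Cd79b in spleen was not detectable at this depth and spread. Knockout values of Cd22 lay above both wild types (2.25 and 3.33 against 1.68 and 1.59 CPM), as for 7.56% of 19271 genes, and no member lay below, as for 2.47%. Wild-type and knockout livers of the same number were littermates, and with litter as a block 157 genes were called but still 0 members. The interaction test, which asks whether the knockout effect differed between spleen and fetal liver, called 0 of 19180 genes (0%) by edgeR, 2018 reached an unadjusted p below 0.05, and 8 passed with DESeq2. With litter as a block it called 1409 genes and 0 members. For Ighm the difference of effects was 2.1 (SE 1.43, adjusted p = 0.514 by edgeR) and for Cr2 0.78 (SE 0.73, adjusted p = 0.627).

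Within the spleen sections the members were arranged in patches. Moran's I, which is near 0 when neighbouring spots are unrelated and approaches 1 when they are alike, was computed over adjacent spots on a log2 scale. For the summed members it was 0.311 in the purchased spleen, 0.639 and 0.496 in the wild types, and 0.485 and 0.648 in the knockouts (0.516 ± 0.138, SD, n = 5). Without Ighm and Ighd it was 0.503, 0.685, 0.421, 0.539 and 0.653. Every member in every spleen was at or above percentile 93.5 of the genes detected in at least 50 spots, whose median I was between 0.0048 and 0.0162. At 1000 UMIs per spot this no longer held for the members with few counts: Cd22 in knockout spleen 1 fell to percentile 10.7, and Bank1 and Fcer2a in the purchased spleen to 44.0 and 52.2, while Ighm, Cd79a, Cd79b, Ms4a1, Ighd and Cr2 were at or above 97.5 in every spleen.

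Among single members Cd79a ranged over the spleens from 0.269 to 0.604, Cr2 from 0.224 to 0.569, Ighm from 0.351 to 0.575 and Fcer2a, the member with the fewest counts, from 0.053 to 0.213. The lowest values of Cd79a, Cd79b, Ms4a1, Cd22, Fcer2a and Cr2 were those of the shallow wild-type spleen 2, and the lowest of Ighm, Ighd and Bank1 those of the purchased spleen. Thinning every spot to 1000 UMIs lowered the summed value to 0.412 on average and that of Fcer2a to a median of 0.0152, while Ighm kept a median of 0.353. Without pancreas spots the sum had I of 0.499 in wild-type spleen 2 and 0.510 and 0.516 in the knockouts, where knockout spleen 2 had been at 0.648. Between genotypes the mean I of the summed members differed by -0.001 in spleen (exact permutation p = 1.00) and -0.068 in fetal liver (exact permutation p = 0.33), and 2 sections against 2 cannot give a p below that.

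**Figure D3:**
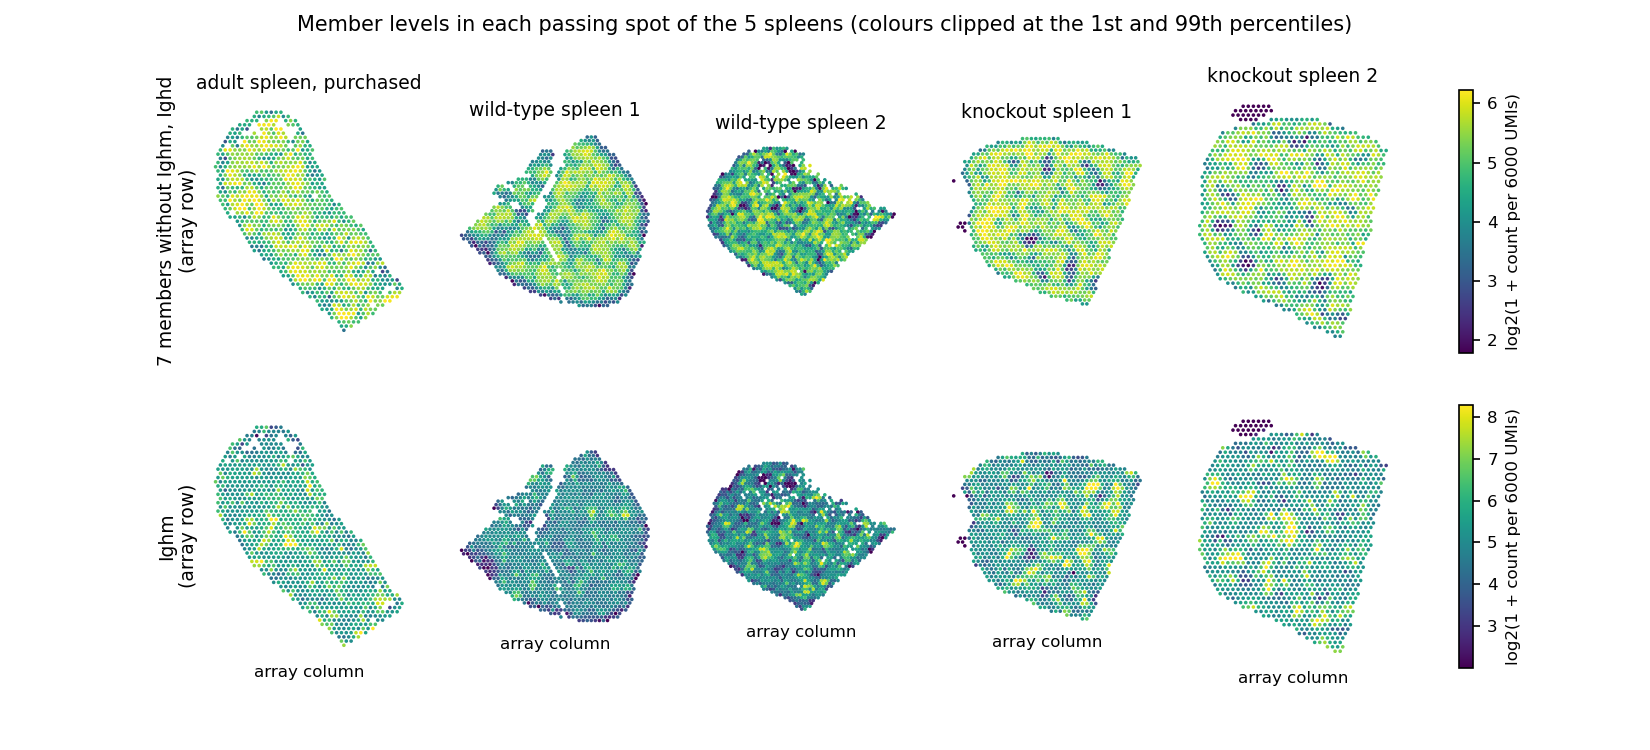
Array maps of the 5 spleen sections, coloured by log2(1 + 6000 × count / spot total) for the summed members without Ighm and Ighd (top) and for Ighm (bottom), with 1 colour scale per row, clipped at its lowest and highest percentile, and positions given as array row and column. Bright patches of the first set cover much of each section, the brightest Ighm spots form smaller groups, and the detached dark spots at the top of knockout spleen 2 are spots low in every member.

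By the summed members, the patches were small in spleen and wide in the bone marrow sections. Ighm was 44.2% to 60.2% of the sum in the spleens, so this division rests largely on it. Spots were not divided by the other members alone. Spots with at least 1.5 times the section's member share made up 5.89% to 12.3% of spleen spots, and their largest connected patch held 7 to 19 spots. In the P8 and 89-week marrows such spots made up 17.1% and 14.1%, and the largest patches held 50 and 77 spots. The P8 section was not restricted to marrow spots. In wild-type fetal liver 2 the largest patch held 39 spots. Likeness between spots fell with distance in the spleens, from 0.311 to 0.648 among adjacent spots to between -0.002 and 0.088 at 5 spots, whereas in the marrows it was still 0.094 (P8) and 0.170 (89 weeks) at 10 spots. The marrow patterns were also carried by fewer genes. In the P8 marrow I was 0.543 for Ighm, 0.503 for Cd79a and 0.339 for Cd79b and at most 0.095 for the other members, and in the 89-week marrow it was 0.550 for Ighm and at most 0.083 for any other. After thinning to 1000 UMIs the summed value was 0.170 at P8 and 0.350 at 89 weeks, and Ighm alone was 0.046 and 0.350. The members summed to 344 CPM at P8 and 8902 CPM at 89 weeks, so thinning left far fewer member counts at P8. Uneven depth and loss of counts cannot be told apart there.

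**Figure D4:**
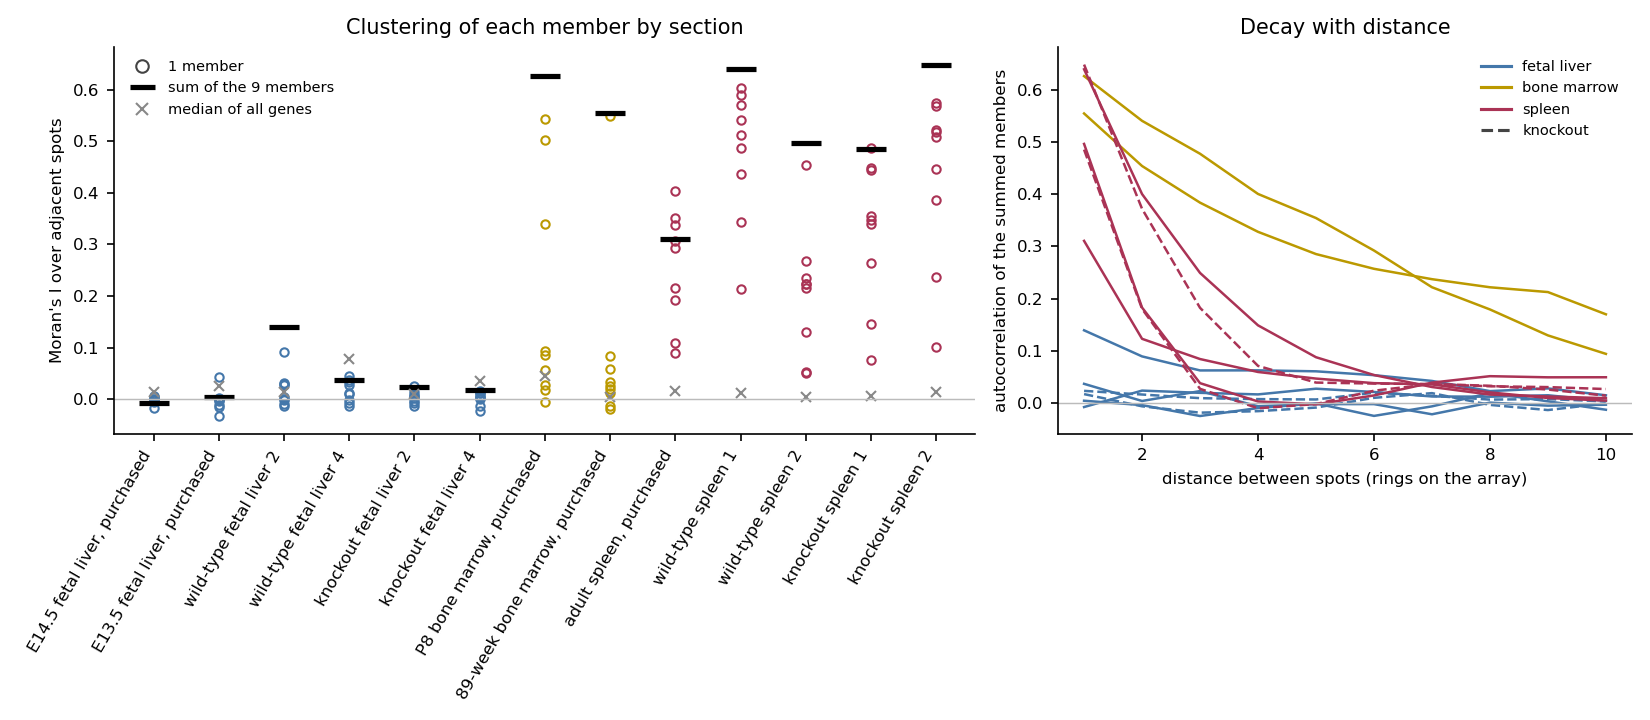
Left, Moran's I over adjacent spots in each section (circles, 1 member each; bars, the sum of the 9; crosses, the median of all genes), without the EDTA-treated marrow. Right, the autocorrelation of the sum against distance in rings of spots, 1 line per section, dashed for knockout. Spleens have values between 0.311 and 0.648 for the sum that fall within a few rings, both marrows fall slowly, and fetal livers stay between -0.008 and 0.139 over adjacent spots.

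In the fetal livers the summed members had I between -0.008 and 0.139, with the highest value in wild-type fetal liver 2, the section with the most Ighm and Cd79a. With so few counts per spot a low value says little about arrangement, and after thinning the 6 livers had I between -0.0157 and 0.0129.

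Across spots of the spleens the members other than Ighm were positively correlated with each other, and Ighm was correlated with the plasma-cell genes. The values are Pearson's r over the spots of a section, given as the median of the 5 spleens, and spots of 1 section share a library and its depth. Cd79a correlated with Cd79b at 0.652, with Cr2 at 0.644 and with Ms4a1 at 0.636, and Ms4a1 with Cr2 at 0.641. Thinned to 1000 UMIs these 4 values were between 0.188 and 0.224, and other pairs were near 0, such as Cd22 with Bank1 at 0.050 and Ms4a1 with Fcer2a at 0.022. Fcer2a gave 0.238 to 0.308 with the members other than Ighm. Ighm gave 0.002 with Cr2, 0.205 with Cd79a and values between these with the rest, but 0.798 with the summed plasma-cell genes (range 0.593 to 0.818 over the 5 spleens, and a median of 0.468 after thinning). The other 8 members had medians of -0.126 to 0.073 with the plasma-cell genes and -0.238 to -0.092 with the T-cell genes, but in wild-type spleen 1 all 8 were positive with the T-cell genes, up to 0.363 for Ighd. Without pancreas spots Cd79a with Cd79b was at 0.629 and Ighm with the plasma-cell genes at 0.798, while Ighm with Cd79a was at -0.009 and with Cr2 at -0.145.

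**Figure D5:**
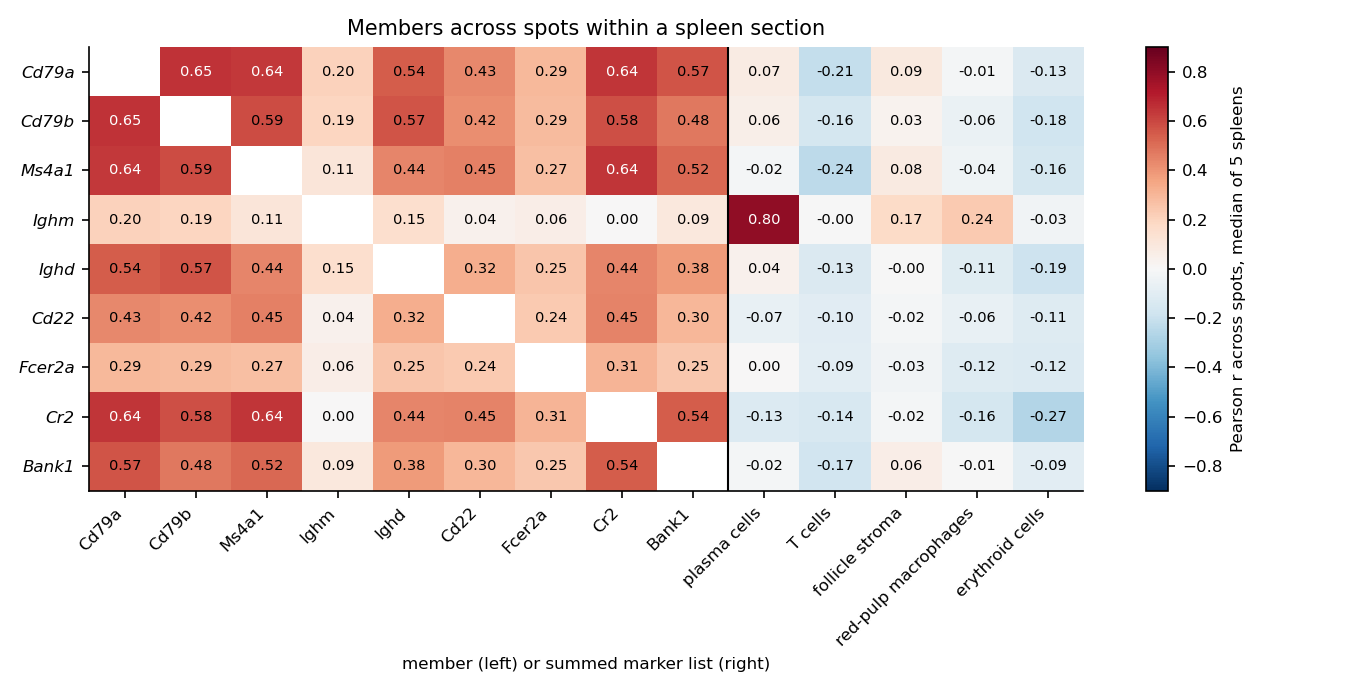
Pearson's r across spots of a section between each pair of members (left of the line) and between members and summed marker lists (right), each cell the median of the 5 spleens. Ighm has its highest value with the plasma-cell list (0.798) and at most 0.205 with any other member.

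Spots were then divided by whether the plasma-cell genes reached 1.5 times their share in the section, which 12.8% to 18.3% of spleen spots did. Ighm was at 29100 CPM in plasma-rich and 7958 CPM in other spots of the purchased spleen, 10206 and 4472 CPM in wild-type spleen 1, 16866 and 5022 CPM in wild-type spleen 2, 32950 and 6528 CPM in knockout spleen 1, and 33364 and 6439 CPM in knockout spleen 2. Both knockouts were above both cross wild types inside and outside the plasma-rich spots, by more inside. The cut follows each section's own plasma-cell level, which was 1062 and 1534 CPM in the wild types and 2108 and 1946 CPM in the knockouts. Plasma-rich spots are therefore not alike between genotypes. Cr2 in plasma-rich spots was 0.416 to 0.543 times its level elsewhere and Cd79a 0.607 to 0.821 times. Cr2 in the other spots was 563 and 270 CPM in the wild types, 1016 and 968 CPM in the knockouts and 1160 CPM in the purchased spleen, which is the order seen over whole sections. Without pancreas spots Ighm in the knockouts was at 33376 and 34354 CPM in plasma-rich and 6627 and 6914 CPM in other spots, and the ratios of Cr2 over the 5 spleens were 0.399 to 0.543.

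The marrows differed in this respect. In the 89-week marrow Ighm correlated with the plasma-cell genes (0.417) and not with Cd79a (0.003), and was at 11290 CPM in plasma-rich and 7470 CPM in other spots. After thinning its value with the plasma-cell genes was 0.213. In the P8 marrow Ighm correlated with Cd79a (0.605), Cd79a with Cd79b (0.502), and both Ighm and Cd79a with the erythroid genes (0.622 and 0.597), while the value of Ighm with the plasma-cell genes was -0.131. Jchain was near the floor at P8, although the plasma-cell list had 5841 UMIs there. The plasma-rich spots at P8 thus rest on the other genes of the list and need not mark plasma cells. Ighm at P8 was at 82.5 CPM in plasma-rich and 186 CPM in other spots, and the other members were also lower in the plasma-rich spots. Depth per spot went with the P8 pattern: member-rich spots had a median of 32598 UMIs and the rest 15055.5, and after thinning Ighm correlated with Cd79a at 0.064 and with the erythroid genes at 0.201.

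Among 9765 genes detected in at least 50 spots of every spleen, those most like the summed members across spots were Igkc (median r 0.785), Ighj4 (0.598), Ighj1 (0.532), Jchain (0.528) and Iglc1 (0.521), which are immunoglobulin genes and their joining chain. The sum is mostly Ighm, whose own r with it was 0.873, against 0.509 for Cd79a and 0.156 for Fcer2a. Those least like it were Asns (-0.248), Fscn1 (-0.233), Cacnb3 (-0.213), Nsg2 (-0.203) and Mt1 (-0.199), of which Fscn1, Cacnb3 and Nsg2 were positive in wild-type spleen 1 (0.096, 0.095 and 0.104).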

How the data were processed

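FFPE sections on Visium slides were processed by the authors to raw UMI counts per gene and spot, deposited as 1 matrix per section with spot positions and tissue marks. Per the file headers and the submitters' processing notes the software was Cell Ranger 4 or Space Ranger 2.1.1, 3.1.2 or 4.0.1 on mm10, and it differed between sections. Section thickness is given differently in the labels and the methods. Deposited images were not used.

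In-tissue spots with at least 1000 genes were kept, as in the study's methods, leaving 37167 to 56182915 UMIs per section. Counts were summed per section, the replicate, and tested with edgeR 4.0.16 (TMM factors, filterByExpr, quasi-likelihood F test, Benjamini-Hochberg adjustment over all genes tested, threshold 0.05) in R 4.3.3. This test was also run on simulated data, with less spread than in the fetal-liver fit or the fits of all 8 cross sections. The common dispersions of these fits were 0.263 and 0.146, so the simulation does not cover them. Intervals and floors (3 counts) cover counting error only, at 95%. Sections of a group are numbered as separate samples, 2 per group, so p-values measure the spread between these sections, and no pair of sections had the same counts within sampling noise. Spatial values used log2(1 + 6000 × count / spot total).

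The genes named are all 9 members, of each other fixed list up to 4 genes with the smallest p plus counts by direction, the 5 genes most and least like the summed members, and C1qa. The members and lists were chosen with earlier results of these data known. The 1.5-fold spot division and promoter motifs were added after seeing the data. The study's supplementary text names fetal livers of 1 number as littermates, and their deviations from the group means correlated at 0.652. The main fits had no litter term, and litter was entered only in alternatives. The correlation cannot tell litter from tissue content, because hepatocyte genes also differed by number. They summed to 98910.5 (wild type) and 48716.1 CPM (knockout) in livers numbered 2, and to 6672.83 and 10568.5 CPM in livers numbered 4. Alternatives were DESeq2 1.42.0, other scaling and filters, other spots, thinning, replicate blocks, joint fits and leaving out each section.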

Additional observations from a re-analysis of the deposited data

Results flagged for a closer look

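Signal outside the tissue. The purchased-mouse matrices also hold spots that lie off the tissue, which no comparison above uses, and the sum of the 9 members was above the limit that a count of 0 allows there in all 6 sections. Single members were at 0 in the E14.5 fetal liver (Ms4a1, Fcer2a and Cr2), the E13.5 fetal liver (Ighd and Fcer2a) and the EDTA-treated marrow (Cd79b and Fcer2a). The adult spleen had 119926 member UMIs in 3954 off-tissue spots, 30.3 per spot against 292 per spot in the tissue, and the 89-week marrow 66362 UMIs, 16.4 against 80.6 per spot. The P8 marrow had 3227, the E14.5 fetal liver 419, the E13.5 fetal liver 263 and the EDTA-treated marrow 46 UMIs. As CPM, off-tissue spots of the spleen were close to the tissue, with 17348 CPM off and 19325 CPM in tissue for the summed members. In the spleen each member's off-tissue count per spot was between 9.96% (Cr2) and 11.2% (Ighd) of its in-tissue value. The origin of these UMIs was not tested, and how much of a spot's own count comes from elsewhere cannot be told apart from this. No group had the 4 sections that a search for outlying samples needs, and no member was called for a knockout effect that differs between spleen and fetal liver.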

How the results depend on the processing

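For the spleen genotype comparison 3 members were called, against 6 by DESeq2, 0 in a joint fit of all 8 cross sections, 1 in that fit with a litter term, and 0 to 5 when 1 section was left out. All genes called numbered 3886, against 0 in the joint fit, 1247 with the litter term, and 240 to 4972 with 1 section left out. By DESeq2 2644 of 18895 genes (14.0%) were called, 2269 higher and 375 lower. Spleen replicate numbers did not pair the samples (correlation 0.039). With number as a block 4968 genes and 4 members were called. The log2 change of Fcer2a, -0.00, was 0.0475 by DESeq2, 0.0027 with the block, 0.0059 without pancreas spots, 0.0569 thinned, 0.0410 without knockout spleen 1 and -0.10 to 0.10 with 1 section left out. Bank1 was -0.15 with upper-quartile factors and -0.11 with library totals.

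For the fetal livers genes called went from 0 to 7 (DESeq2), 15 (library totals), 157 (litter as block), 1 (hepatocyte spots), 170 (joint fit with litter term) and 0 to 109 (1 section left out: 109 without wild-type fetal liver 2, 103 without wild-type fetal liver 4), with 0 members throughout. Directions of members there were not stable: Cd79a 0.0016 with the block, Ighd -0.0768 thinned and -0.0103 without wild-type fetal liver 4, Bank1 -0.5507 without that section, and with 1 section left out Cd79a -1.63 to 2.02, Cd79b -1.54 to 1.15, Ms4a1 -0.24 to 1.45, Ighm -2.09 to 1.19, Ighd -0.01 to 1.18, Cr2 -0.19 to 1.19 and Bank1 -0.62 to 1.55. For spleen against fetal liver 10216 genes were called, 6706 with library totals and 5589 to 12043 with 1 section left out (6068 without wild-type spleen 1, 6429 without wild-type spleen 2). The interaction called 0 genes, 8 by DESeq2, 1409 with litter as block and 0 to 2 with 1 section left out. The knockout minus wild-type difference in Moran's I, -0.0009 in spleen, was -0.0565 without pancreas spots, -0.0415 on raw shares, 0.0650 thinned, 0.0141 on all spots, 0.0435 without Ighm and Ighd and -0.0824 to 0.0805 with 1 section left out in spleen (0.0705 without wild-type spleen 1), and 0.0048 thinned in fetal liver. The causes were not tested. Library totals, the litter term in joint fits and organ spots for the tissue comparisons, spot correlations and plasma-rich spots were chosen after seeing the data. With 2 sections per group, leaving 1 out assumes that the lone section varies like the others.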
